A study of Mus musculus with 8 samples.

Results

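Macrophages of epididymal white adipose tissue were followed through 10 marker genes, of 18820 genes measured in mice that lack the succinate receptor SUCNR1 and in their wild-type (WT) counterparts. The 10 genes were taken from a written list, as 3 pan-macrophage genes (*Adgre1*, *Cd68* and *Csf1r*) and 7 genes used to mark resident, tissue-settled macrophages (*Mrc1*, *Cd163*, *Lyve1*, *Timd4*, *Folr2*, *Clec10a* and *Retnla*). The list was chosen with earlier results of these data known, so shares of all genes set beside it describe and do not test. All 10 were on the arrays, each as 1 probe set annotated to that gene alone, and no filter on dim genes was applied. The tissue came from 4 *Sucnr1*-/- and 4 WT male mice on a C57BL/6 background, obtained by intercrossing heterozygous animals. All 8 ate a semi-synthetic low-fat diet (LFD) for 16 weeks from an age of 8 to 10 weeks and were killed at 24 to 26 weeks. In the *Sucnr1*-/- mice a reporter and resistance cassette replaces most of the receptor's coding exon in every cell of the body, so that adipocytes and macrophages alike carry the deletion. Each mouse gave 1 Affymetrix whole-transcript array of the intact fat pad.

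Adipose tissue holds macrophages in several states. Those that settle in the lean fat pad lie along vessels and between adipocytes, take up debris and scavenge proteins, and carry lectins and scavenger receptors on their surface, whereas macrophages that enter expanding fat from blood monocytes surround dying adipocytes and handle their lipid. Survival of both depends on the receptor encoded by *Csf1r*, and macrophage identity on the transcription factor PU.1, encoded by *Spi1*. In the mouse the cytokines IL-4 and IL-13 act through STAT6 to raise genes of alternative activation, *Retnla*, *Mrc1* and *Clec10a* among them. Several of the markers are also carried by other cells: *Lyve1* and *Mrc1* by lymphatic endothelium, *Clec10a* by dendritic cells and *Adgre1* by mouse eosinophils. In RNA from a whole fat pad, fewer macrophages and less RNA per macrophage cannot be told apart.

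The promoter windows of 3 markers, from 250 bases before to 50 after the start of transcription, are printed because they hold a motif of the pathways just described. They belong to *Cd68* and *Mrc1*, which had lower means in *Sucnr1*-/- mice, and to *Retnla*, which did not. Capitals mark GAGGAA on either strand, a core of many PU.1 sites, and TTCNNNNGAA, the palindrome that STAT6 can bind. The sequences are from RefSeq for assembly GRCm38.p6 and run 5′ to 3′ on the strand of the gene.
*Cd68* promoter, GRCm38.p6 chr11:69666121-69666420, minus strand: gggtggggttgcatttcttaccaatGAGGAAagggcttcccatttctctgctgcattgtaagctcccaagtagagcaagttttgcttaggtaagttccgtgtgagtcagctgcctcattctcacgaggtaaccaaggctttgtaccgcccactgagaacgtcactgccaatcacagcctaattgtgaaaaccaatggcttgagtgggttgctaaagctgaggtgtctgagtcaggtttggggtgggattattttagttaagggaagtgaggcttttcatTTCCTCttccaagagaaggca
*Mrc1* promoter, GRCm38.p6 chr2:14229164-14229463, plus strand: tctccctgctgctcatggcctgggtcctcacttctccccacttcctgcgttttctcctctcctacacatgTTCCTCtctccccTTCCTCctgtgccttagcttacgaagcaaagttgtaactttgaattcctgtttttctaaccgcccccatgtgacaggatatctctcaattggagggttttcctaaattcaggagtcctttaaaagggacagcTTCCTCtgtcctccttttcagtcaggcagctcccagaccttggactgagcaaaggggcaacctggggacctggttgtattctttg
*Retnla* promoter, GRCm38.p6 chr16:48842359-48842658, plus strand: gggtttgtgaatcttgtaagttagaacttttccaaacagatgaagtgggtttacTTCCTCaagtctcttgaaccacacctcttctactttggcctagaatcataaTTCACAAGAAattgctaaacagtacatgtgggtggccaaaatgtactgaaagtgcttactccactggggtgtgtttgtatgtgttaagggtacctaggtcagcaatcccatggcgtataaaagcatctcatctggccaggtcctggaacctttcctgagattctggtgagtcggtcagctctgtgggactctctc
Windows were held for 6 of the 10 markers, *Cd163*, *Timd4* and *Folr2* being the others. GAGGAA stood in 3 of these 6, with 2 matches for *Cd68*, 3 for *Mrc1* and 1 for *Retnla*, where 28.3% of 32851 mouse promoter windows of the same length hold it. TTCNNNNGAA stood in *Retnla* alone, where 6.95% of windows hold it, and no match overlapped another. A match describes the sequence and does not show a bound site.

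The deposited values are log2 expression from RMA (robust multi-array average), a procedure that subtracts background, aligns the distributions of the arrays and combines the probes of a set, so a difference of 1 is a factor of 2. Medians of the 8 arrays lay between 6.28 and 6.36, and no dates were used, so batches were not examined. *Sucnr1* was at 6.02, 6.05, 5.41 and 7.11 in *Sucnr1*-/- mice 1 to 4, against 8.68, 8.97, 9.38 and 9.78 in WT mice 1 to 4. It differed by −3.05 (SE 0.36; limma, adjusted p = 0.321; exact two-sided permutation p = 0.0286), with no overlap between genotypes. The permutation p is the smallest that 4 mice against 4 allow. *Adipoq*, the adiponectin gene that defines adipocytes, lay between 13.17 and 13.35 on all 8 arrays. The 7 epididymis markers averaged 4.53 to 4.59 in *Sucnr1*-/- and 4.44 to 4.88 in WT mice, highest in WT replicate 2, where *Lcn8* was at 5.96 against 4.39 to 4.54 in the other WT mice and *Adam7* at 4.56 against 3.79 to 4.07. Without that mouse *Adgre1* and *Cd68*, described below, differed by −0.57 and −0.61.

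In adipose tissue of *Sucnr1*-/- mice the 3 pan-macrophage genes had lower means than in WT mice. The differences on the log2 scale were −0.50 for *Adgre1*, −0.49 for *Cd68* and −0.24 for *Csf1r*, whose genotypes overlapped. The resident genes were mixed, and 2 of them, *Mrc1* (−0.42) and *Timd4* (−0.30), differed by more than *Csf1r*. Of the 10 markers, 8 had a lower and 2 a higher mean, where 46.8% of all genes had a lower one. Given as *Sucnr1*-/- minus WT, the log2 differences of the 10 had a median of −0.23, beside 0.01 for all 18820 genes. The median was −0.49 for the 3 pan-macrophage genes and −0.06 for the 7 resident genes. For 2 markers, *Adgre1* and *Cd68*, every *Sucnr1*-/- mouse was below every WT mouse, a separation in this direction that 1.87% of all genes showed. At an unadjusted limma p under 0.05 the lower markers were *Adgre1*, *Cd68* and *Mrc1*, 3 of 10, against 3.36% of all genes, and no marker was higher, against 3.46%. These shares turn with the scaling: with each array centred on its median, 1.75% of genes were lower and 7.18% higher, and 2 markers, *Adgre1* and *Cd68*, were lower. After Benjamini-Hochberg adjustment over all genes limma called none of the 10, nor any other gene (0%), at a threshold of 0.05. Unadjusted, 1284 genes were under 0.05 with limma, and 1247 with the methods' t-test, which is named for comparing groups in general and not for the arrays, of which adjustment also left 0. No marker difference below therefore passed the test over all genes.

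**Figure D1:**
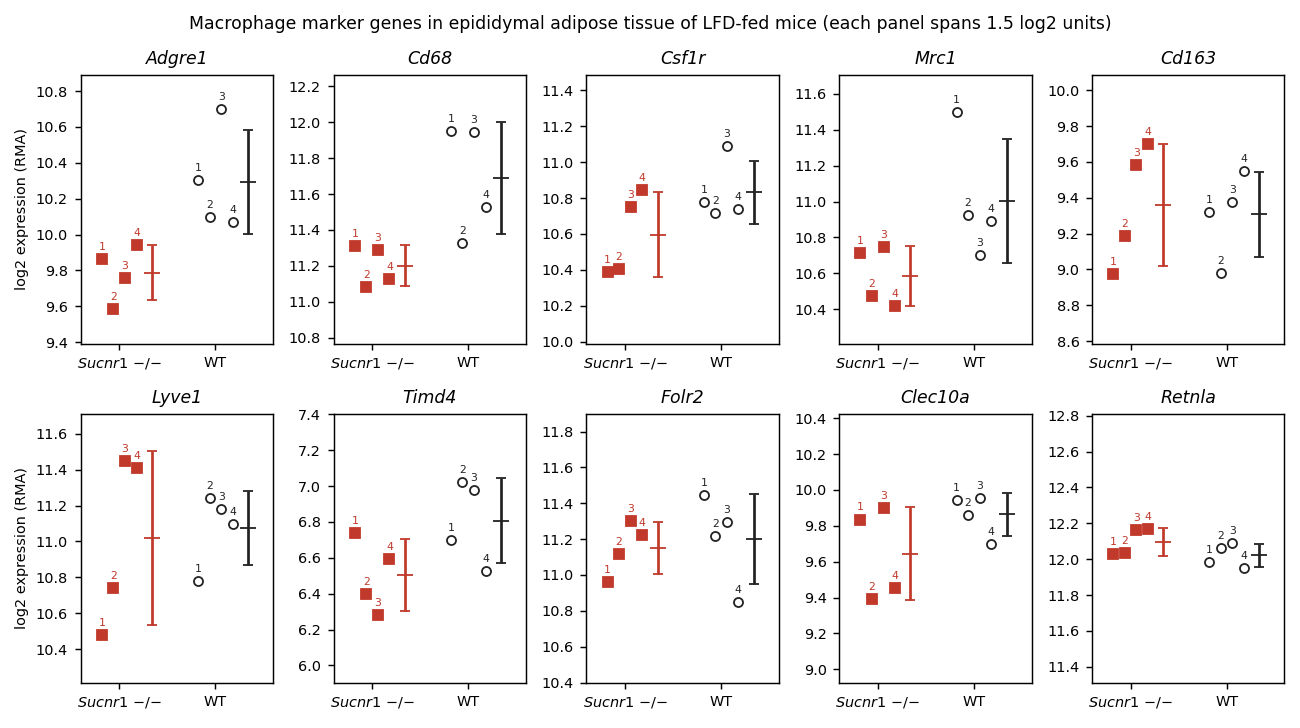
Log2 expression (RMA, vertical axis) of the 10 macrophage markers, 1 point per mouse with its replicate number, *Sucnr1*-/- as filled squares and WT as open circles, with the mean and SD (n = 4) beside each group. Every panel spans the same log2 range, and the groups lie apart for *Adgre1* and *Cd68* alone, while *Retnla* varies least.

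*Adgre1* encodes F4/80, the adhesion receptor by which mouse macrophages are stained in tissue sections. It was at 9.87, 9.59, 9.76 and 9.94 in *Sucnr1*-/- mice 1 to 4, against 10.30, 10.10, 10.70 and 10.07 in WT mice 1 to 4. The highest *Sucnr1*-/- mouse and the lowest WT mouse, replicate 4 in each genotype, were at 9.94 and 10.07, and WT replicate 3 stood highest of all. The log2 difference was −0.50 (SE 0.15, 95% interval −0.84 to −0.17; limma, adjusted p = 0.712; exact permutation p = 0.0286), which places the geometric mean of *Sucnr1*-/- mice at 70.5% of WT.

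*Cd68* encodes macrosialin, a glycoprotein of the endosomal and lysosomal membranes of phagocytes. It was at 11.31, 11.08, 11.29 and 11.13 in *Sucnr1*-/- mice 1 to 4, against 11.95, 11.33, 11.95 and 11.53 in WT mice 1 to 4. The *Sucnr1*-/- mice lay close together, with an SD of 0.11 against 0.31 in WT mice (n = 4 each), and WT replicates 1 and 3 were the high ones. The gap between genotypes was narrow, from 11.31 in the highest *Sucnr1*-/- mouse to 11.33 in the lowest WT mouse. The log2 difference was −0.49 (SE 0.15, 95% interval −0.82 to −0.15; limma, adjusted p = 0.712; exact permutation p = 0.0286), or 71.3% of WT.

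*Csf1r* encodes the receptor for the growth factors CSF1 and IL-34. It was at 10.39, 10.40, 10.75 and 10.85 in *Sucnr1*-/- mice 1 to 4, against 10.78, 10.72, 11.09 and 10.74 in WT mice 1 to 4. *Sucnr1*-/- replicates 1 and 2 lay below every WT mouse, but replicates 3 and 4 lay within the WT range. *Csf1r* differed by −0.24 (SE 0.13, 95% interval −0.54 to 0.06; limma, adjusted p = 0.730; exact permutation p = 0.257). It was −0.15 without WT replicate 3, the highest mouse.

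Among the resident markers the mannose receptor gene *Mrc1*, whose product (CD206) binds and takes up glycoproteins, had the largest difference. It was at 10.71, 10.47, 10.75 and 10.42 in *Sucnr1*-/- mice 1 to 4, against 11.50, 10.92, 10.70 and 10.89 in WT mice 1 to 4. The groups overlapped through WT replicate 3, and WT replicate 1 stood well above the rest. The log2 difference was −0.42 (SE 0.17, 95% interval −0.80 to −0.04; limma, adjusted p = 0.712; exact permutation p = 0.0857), and −0.25 without WT replicate 1. Immediate early genes, which respond within minutes to stress and handling, were highest in the same mouse, deviating from the WT mean by 0.41, −0.56, −0.36 and −0.69 in *Sucnr1*-/- mice 1 to 4, against 0.66, −0.18, −0.41 and −0.07 in WT mice 1 to 4. Their part in the *Mrc1* difference was not tested, and without replicate 1 of both genotypes *Mrc1* differed by −0.29.

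*Timd4* encodes TIM-4, a receptor for phosphatidylserine on apoptotic cells, found on long-lived resident macrophages. It was at 6.74, 6.40, 6.28 and 6.59 in *Sucnr1*-/- mice 1 to 4, against 6.70, 7.02, 6.98 and 6.53 in WT mice 1 to 4. WT replicates 2 and 3 were above all other mice, and the remaining 6 were intermixed. Between genotypes *Timd4* differed by −0.30 (SE 0.14, 95% interval −0.62 to 0.01; limma, adjusted p = 0.719; exact permutation p = 0.143). Its values lie near the array medians, and the deposited table has no background signal by which a dim gene could be called detected.

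*Clec10a* encodes MGL1, a lectin for galactose and N-acetylgalactosamine. It was at 9.84, 9.39, 9.90 and 9.45 in *Sucnr1*-/- mice 1 to 4, against 9.95, 9.86, 9.96 and 9.70 in WT mice 1 to 4. *Sucnr1*-/- replicates 2 and 4 were low, whereas replicates 1 and 3 lay among the WT mice. The mean of *Clec10a* differed by −0.22 (SE 0.13, 95% interval −0.51 to 0.07; limma, adjusted p = 0.732; exact permutation p = 0.200), and −0.14 without *Sucnr1*-/- replicate 2. *Mgl2*, a closely related lectin gene whose transcripts may share probes with it, differed by −0.32 (SE 0.20; limma, adjusted p = 0.736).

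The scavenger receptor gene *Cd163*, whose product clears haemoglobin bound to haptoglobin, was among the 2 markers with a higher mean. It was at 8.97, 9.19, 9.58 and 9.70 in *Sucnr1*-/- mice 1 to 4, against 9.32, 8.98, 9.38 and 9.55 in WT mice 1 to 4. The 2 highest mice were *Sucnr1*-/- replicates 4 and 3 and the lowest was *Sucnr1*-/- replicate 1, so that the *Sucnr1*-/- range enclosed the WT range. The log2 difference was 0.05 (SE 0.18, 95% interval −0.36 to 0.46; limma, adjusted p = 0.948; exact permutation p = 0.800).

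*Lyve1*, which encodes a receptor for hyaluronan, spread in the same way. It was at 10.48, 10.74, 11.45 and 11.41 in *Sucnr1*-/- mice 1 to 4, against 10.78, 11.24, 11.18 and 11.10 in WT mice 1 to 4. *Sucnr1*-/- replicates 3 and 4 were above, and replicates 1 and 2 below, all WT mice, with an SD of 0.49 against 0.21 (n = 4 each). For *Lyve1* the difference was −0.06 (SE 0.23, 95% interval −0.57 to 0.46; limma, adjusted p = 0.955; exact permutation p = 0.857), an interval that leaves room for a change of either sign as large as that of *Mrc1*.

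*Folr2* encodes folate receptor β, a marker of vessel-associated macrophages. It was at 10.96, 11.12, 11.30 and 11.22 in *Sucnr1*-/- mice 1 to 4, against 11.45, 11.21, 11.30 and 10.85 in WT mice 1 to 4. WT mice held both the highest value, in replicate 1, and the lowest, in replicate 4. *Folr2* differed by −0.05 (SE 0.13, 95% interval −0.35 to 0.24; limma, adjusted p = 0.925; exact permutation p = 0.800). This interval lies above the point estimates for *Adgre1*, *Cd68* and *Mrc1* but overlaps their own 95% intervals, and a difference between genes was not tested.

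*Retnla* encodes RELMα, a secreted protein raised by IL-4 and IL-13 in mouse macrophages and also made elsewhere in fat. It was at 12.03, 12.03, 12.16 and 12.17 in *Sucnr1*-/- mice 1 to 4, against 11.99, 12.06, 12.09 and 11.95 in WT mice 1 to 4. All 8 mice lay within 0.21 of each other, the smallest range among the 10 markers, with *Sucnr1*-/- replicates 3 and 4 on top. *Retnla* differed by 0.07 (SE 0.06, 95% interval −0.07 to 0.22; limma, adjusted p = 0.781; exact permutation p = 0.200).

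**Figure D2:**
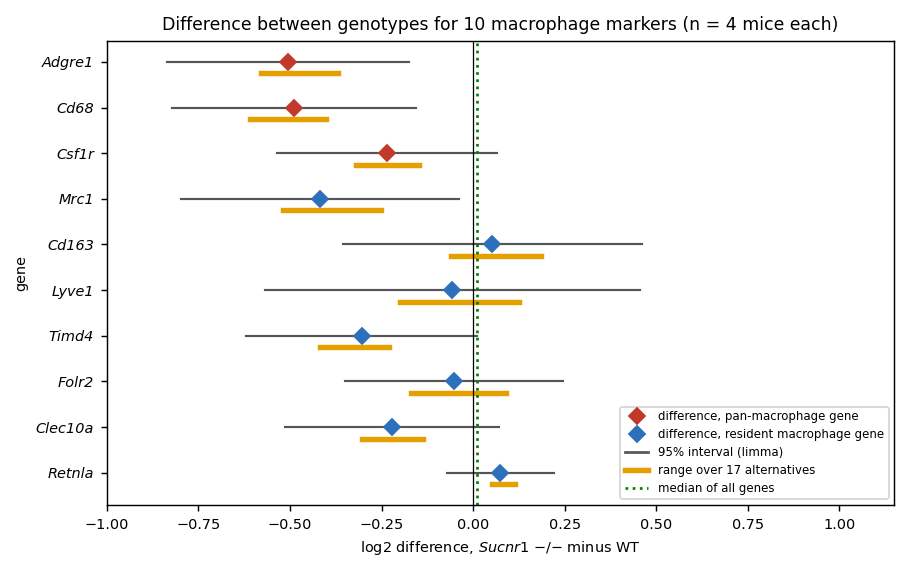
Log2 difference, *Sucnr1*-/- minus WT (horizontal axis), of each marker (rows), with its limma 95% interval in grey. Below it in orange is the range of the difference over 17 alternatives, in processing or with mice left out. The intervals of *Adgre1*, *Cd68* and *Mrc1* lie below 0 before adjustment over all genes, and the orange ranges of *Cd163*, *Lyve1* and *Folr2* cross 0.

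The markers did not share an order of mice. *Adgre1* and *Cd68* separated the genotypes, with WT replicates 1 and 3 the 2 highest mice for each. In *Csf1r*, *Cd163*, *Lyve1*, *Folr2* and *Retnla*, 5 of the 10 markers, *Sucnr1*-/- replicates 3 and 4 both lay above replicates 1 and 2, an order seen after the values were known and present in 20.5% of all genes. *Sucnr1*-/- replicate 2 was among the 3 lowest mice for 9 of 10 markers, and WT replicate 3 was among the 3 highest for 7. Both were seen after the values were known, and their shares of all genes were not counted. Averaged over the 3 pan-macrophage genes, *Sucnr1*-/- mice 1 to 4 deviated from the WT mean by −0.42, −0.58, −0.34 and −0.30, against 0.07, −0.22, 0.31 and −0.16 for WT mice 1 to 4. Over the 7 resident genes the deviations were −0.22, −0.28, 0.02 and −0.05 in *Sucnr1*-/- mice and 0.06, 0.00, 0.04 and −0.10 in WT mice. Within each mouse, the pan-macrophage mean minus the resident mean was −0.19, −0.30, −0.36 and −0.25 in *Sucnr1*-/- mice, against 0.02, −0.23, 0.27 and −0.06 in WT mice. WT replicate 2 overlapped the *Sucnr1*-/- mice in this measure, which was not tested because the genes were chosen with results known.

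**Figure D3:**
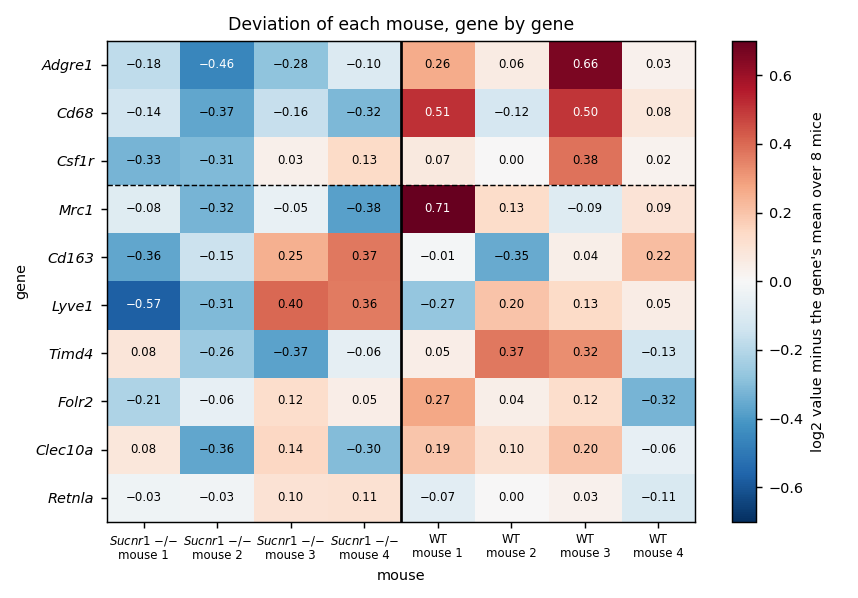
Deviation of each mouse from the mean of all 8 mice (colour and printed value, log2) for each marker (rows), with *Sucnr1*-/- mice on the left, WT mice on the right and pan-macrophage genes above the dashed line. *Adgre1*, *Cd68* and *Mrc1* are negative in all *Sucnr1*-/- mice. *Csf1r*, *Cd163*, *Lyve1*, *Folr2* and *Retnla* are negative in *Sucnr1*-/- replicates 1 and 2 and positive in replicates 3 and 4.

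Other genes of macrophage biology were read from lists, for which counts and medians are given without a test. Lists here and below share some genes, which are counted in each. Examples are the resident and STAT6 lists, and the adipocyte and lipid-associated macrophage lists. Of 19 further pan-macrophage genes, 18 had a lower mean in *Sucnr1*-/- mice (median −0.34), against 46.8% of all genes, and for 6 of these 18 the unadjusted p was under 0.05, against 3.36%. For 0 of the 19 was every *Sucnr1*-/- mouse below every WT mouse, against 1.87% of all genes. Averaged over the 19, *Sucnr1*-/- replicate 1 deviated from the WT mean by −0.08, above WT replicates 2 (−0.21) and 4 (−0.19). *Ctss*, a lysosomal protease, was at 10.40, 10.19, 10.39 and 10.51 in *Sucnr1*-/- mice, against 11.36, 10.41, 11.35 and 10.69 in WT mice, a difference of −0.58 (SE 0.21; limma, adjusted p = 0.712). As for *Cd68*, WT replicates 1 and 3 were the high mice. *Laptm5*, a lysosomal membrane protein of blood cells, differed by −0.33 (SE 0.12; limma, adjusted p = 0.712). The exception was *Mertk*, a receptor for the clearance of apoptotic cells, at 10.01, 10.29, 10.28 and 10.15 in *Sucnr1*-/- mice, against 9.44, 9.66, 9.93 and 9.94 in WT mice. All *Sucnr1*-/- mice lay above all WT mice for *Mertk*, which 2.37% of genes did, with a difference of 0.44 (SE 0.12; limma, adjusted p = 0.712).

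Of 25 further resident macrophage genes, 20 had a lower and 5 a higher mean (median −0.13), against 46.8% of all genes with a lower one. At an unadjusted p under 0.05 1 was lower, a share near the 3.36% of all genes. This was *Marco*, a scavenger receptor, at 5.47, 5.38, 5.31 and 5.26 in *Sucnr1*-/- mice, against 5.55, 5.52, 5.54 and 5.52 in WT mice. Its values lay below the array medians and were nearly constant in WT mice, and it differed by −0.18 (SE 0.06; limma, adjusted p = 0.712). *Fcna*, a soluble lectin, differed by −0.43 (SE 0.20; limma, adjusted p = 0.719). In the other direction *Slc40a1*, the iron exporter ferroportin, differed by 0.56 (SE 0.27; limma, adjusted p = 0.719).

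Of 17 genes of the CSF1 receptor axis and of lineage transcription factors, 15 had a lower mean (median −0.20), with 2 lower and 1 higher at an unadjusted p under 0.05, against 3.36% and 3.46% of all genes. *Spi1* was at 10.26, 9.77, 9.88 and 9.78 in *Sucnr1*-/- mice, against 10.66, 10.11, 10.43 and 10.00 in WT mice. In each genotype replicate 1 was highest, and the difference was −0.38 (SE 0.16; limma, adjusted p = 0.719). *Irf5*, a transcription factor of inflammatory macrophages, differed by −0.36 (SE 0.15; limma, adjusted p = 0.712). The higher gene was *Il34*, a ligand of the CSF1 receptor, at 8.36, 8.60, 8.49 and 8.57 in *Sucnr1*-/- mice, against 8.11, 8.15, 8.35 and 8.31 in WT mice. The genotypes did not overlap for *Il34*, with 8.36 in the lowest *Sucnr1*-/- mouse and 8.35 in the highest WT mouse, and it differed by 0.27 (SE 0.08; limma, adjusted p = 0.712). The other ligand, *Csf1*, named for this contrast after its values were seen, differed by −0.34 (SE 0.52; limma, adjusted p = 0.873).

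Of 18 genes of the STAT6 axis of alternative activation, 14 had a lower mean (median −0.28), 2 of them at an unadjusted p under 0.05, against 3.36% of all genes. These were the chemokine genes *Ccl17*, which differed by −1.55 (SE 0.58; limma, adjusted p = 0.712), and *Ccl22*, which differed by −0.80 (SE 0.32; limma, adjusted p = 0.712). *Ccl17* spread widely within the *Sucnr1*-/- group (SD 1.25, n = 4), at 8.78, 7.46, 7.27 and 5.72, against 9.44, 9.28, 8.61 and 8.10 in WT mice. *Tgm2*, a transglutaminase, differed by −0.18 (SE 0.08; limma, adjusted p = 0.719), and in the other direction *Irf4*, a transcription factor, by 0.45 (SE 0.40; limma, adjusted p = 0.786). Dendritic cells also make *Ccl17* and *Ccl22*. *Stat6* itself differed by −0.03 (SE 0.07; limma, adjusted p = 0.928).

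Markers of other cells that carry some of these genes were measured in the same mice. The counts of lower means below stand beside 46.8% of all genes with a lower mean. Of 7 lymphatic endothelial markers 7 had a lower mean (median −0.31), with mean list levels of 7.06 to 7.67 in *Sucnr1*-/- mice and 7.26 to 8.34 in WT mice. *Prox1*, the defining transcription factor, lay at 4.93 to 5.78 in *Sucnr1*-/- and 4.99 to 6.24 in WT mice. Of 9 dendritic cell markers 6 had a lower mean, at mean levels of 6.55 to 6.86 in *Sucnr1*-/- and 6.68 to 7.07 in WT mice. Of 6 eosinophil markers 2 did, at 5.02 to 5.30 in *Sucnr1*-/- and 5.001 to 5.27 in WT mice. Monocyte markers were lower in mean for 6 of 6 (median −0.44), none of them under an unadjusted p of 0.05. Markers of lipid-associated macrophages had lower means for 8 of 9 (median −0.48), 5 of them at an unadjusted p under 0.05, against 3.36% of all genes. For 2 of the 5 every *Sucnr1*-/- mouse was below every WT mouse, against 1.87% of all genes. These were *Gpnmb* (−0.76, SE 0.23; limma, adjusted p = 0.712), a glycoprotein of lipid-laden phagocytes, and *Lgals3* (−0.32, SE 0.11; limma, adjusted p = 0.712), which encodes galectin 3. Lymphoid and mast cell markers moved with the pan-macrophage genes. All 7 mast cell markers had a lower mean (median −0.36), 4 of them at an unadjusted p under 0.05, against 3.36% of all genes. The same 4 showed no overlap between genotypes, against 1.87% of all genes in this direction. *Tpsb2*, a tryptase gene, was among them at −0.73 (SE 0.12; limma, adjusted p = 0.688). Mean levels of the 7 mast cell markers were 6.56 to 6.98 in *Sucnr1*-/- and 7.04 to 7.24 in WT mice. All 7 B cell (median −0.63) and all 7 T cell markers (median −0.28) had lower means, none under an unadjusted p of 0.05, at 5.36 to 6.52 and 6.04 to 7.10 in *Sucnr1*-/- mice, against 5.83 to 7.82 and 6.21 to 7.18 in WT mice. Within WT mice, replicates 1 and 3 were highest for both, as for *Cd68*. Neutrophil markers deviated from the WT mean by 1.88 in *Sucnr1*-/- replicate 1, by −0.61 to −0.10 in the other *Sucnr1*-/- mice and by −0.59 to 0.90 in WT mice. Of 10 adipocyte markers 9 had a higher mean (median 0.07), at levels of 12.70 to 12.79 in *Sucnr1*-/- mice and 12.49 to 12.79 in WT mice. Stromal progenitor markers deviated from the WT mean by −0.23, −0.12, 0.03 and 0.14 in *Sucnr1*-/- mice 1 to 4. *Csf1r*, *Cd163* and *Retnla* stood in the same order of *Sucnr1*-/- mice, which was seen after the values were known. Its share of all genes was not counted. The looser order, with replicates 3 and 4 above 1 and 2, was present in 20.5% of all genes. None of these marker genes was called by limma after adjustment, RMA values have no 0 by which absence could be read, and the part of these cells in the marker differences was not tested.

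**Figure D4:**
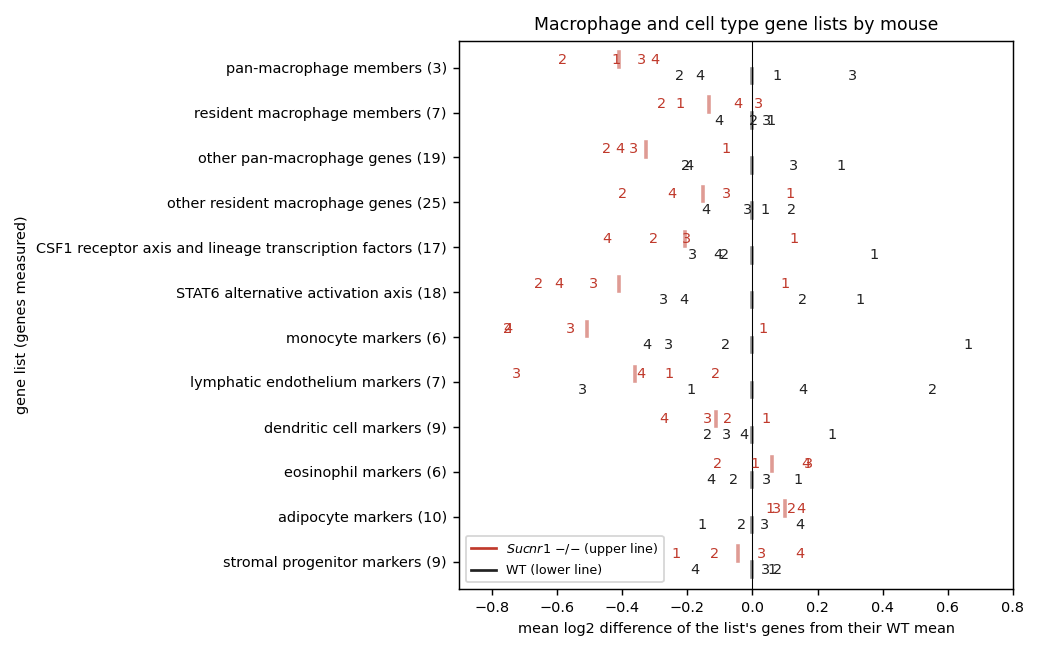
Average deviation (log2, horizontal axis) of the genes in each list from the WT average, 1 digit per mouse, with *Sucnr1*-/- in red on the upper line and WT in black on the lower line of each row, and bars at group means. Red and black digits are separate for the 3 pan-macrophage markers. They are intermixed for the 7 resident markers and, through *Sucnr1*-/- replicate 1, for the 19 further pan-macrophage genes.

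The profile of the 3 pan-macrophage genes over the 8 mice was most closely followed by *P2ry14*, measured as the root mean square difference between standardised profiles (0.19, where 0 is the same profile). *P2ry14* encodes a receptor for UDP-sugars and lies on chromosome 3, as does *Sucnr1*, with 11 protein-coding genes between them in the gene order of GRCm38.p6. It differed by −0.76 (limma, adjusted p = 0.712), and a tie to the *Sucnr1* locus was not tested. Likeness was measured over all 8 mice with the genotype difference included. Genes picked in this way therefore tend to differ in the same direction as the markers. Next came *Adcy7*, an adenylyl cyclase of blood cells (0.24), *Lipa*, the lysosomal acid lipase (0.24), the lipid kinase gene *Pip4k2a* (0.26) and the sorting nexin gene *Snx5* (0.26). For the 7 resident genes the nearest was *Cd209b*, a lectin of tissue macrophages (0.26), which differed by −0.25 (limma, adjusted p = 0.747), followed by *Chd3* (0.31), *Syngr1* (0.33), *Lysmd2* (0.33) and *Gpx8* (0.34). Within the list, the profiles of *Adgre1* and *Cd68* were the closest pair (0.45) and those of *Mrc1* and *Retnla* the farthest (1.65).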

How the data were processed

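Epididymal adipose tissue of 4 *Sucnr1*-/- and 4 WT mice was measured on Affymetrix Mouse Gene ST arrays. The deposited log2 values were made by the authors with RMA, of a version that the sources used here do not give. RMA removes differences in total signal between arrays and compresses low values. Of 35556 probe sets, 21218 had exactly 1 gene symbol, and 21185 of these were matched by Entrez ID to RefSeq genes of GRCm38.p6. The brightest probe set stood for each of 18820 genes. Genotypes were compared by linear models in limma (version 3.58.1, R 4.3.3), p-values were adjusted over the whole gene table by the Benjamini-Hochberg method, and single genes also by exact permutation over the 70 ways to choose 4 of 8 arrays. The procedure was tested on simulated data. Sensitivity was examined with 17 alternatives in scaling, filtering, test, probe set choice, array weights, replicate block and left-out arrays. Precision is limited by having 4 arrays a group.

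The members and lists were chosen with earlier results of these data known. Named genes were *Sucnr1*, all 10 markers, the 3 genes of smallest unadjusted p and the largest opposite difference per macrophage list, the first genes of other marker lists in list order, and the 5 genes of most similar profile, predicted genes left out. *Mgl2*, *Csf1*, *Stat6*, *Gpnmb*, *Lgals3*, *Tpsb2* and *Adam7* were added after their values were seen. Some listed genes are not analysed here. Differences are *Sucnr1*-/- minus WT. Plots used Python 3.11.15 and matplotlib 3.10.9.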

Additional observations from a re-analysis of the deposited data

Results flagged for a closer look

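In none of the 10 macrophage markers, nor in *Sucnr1*, did a mouse stand apart from the other 3 of its genotype by Dixon's criterion for 4 samples. The criterion was applied to 88 genes (those named and the first genes of each marker list, not every marker), in 176 groups of 4, and 5 groups had such a mouse, where chance gives about 1 in 20. *Pip4k2a* was at 9.63 in *Sucnr1*-/- replicate 2, with 9.81 to 9.85 in the other *Sucnr1*-/- mice. *Gpx8* was at 10.45 in WT replicate 4, with 10.72 to 10.75 in the other WT mice, and *Prg2*, an eosinophil marker, at 4.67 in WT replicate 1, with 4.43 to 4.46 in the others. Of the epididymis markers, *Lcn9* was at 4.54 in *Sucnr1*-/- replicate 1, with 4.62 to 4.63 in the others, and *Lcn8* at 5.96 in WT replicate 2, with 4.39 to 4.54 in the others.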

How the results depend on the processing

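Over 17 alternatives no gene passed limma or the methods' t-test at an adjusted p under 0.05, and the median difference of the 10 markers stayed between −0.27 and −0.15, −0.23 as reported. The count of markers lower at an unadjusted p under 0.05 ranged from 2 to 4. *Adgre1* and *Cd68* had lower means and unadjusted p values under 0.05 in all 17, *Mrc1* in 12. The sign of 3 markers turned. *Cd163* was at −0.021, −0.062 and −0.056 without *Sucnr1*-/- replicate 3, *Sucnr1*-/- replicate 4 or WT replicate 2. *Lyve1* was at 0.12 and 0.036 without *Sucnr1*-/- replicates 1 or 2, and at 0.025 without replicate 1 of both genotypes. With 1 mouse left out the range was −0.062 to 0.18 for *Cd163*, −0.20 to 0.12 for *Lyve1* and −0.17 to 0.028 for *Folr2*. *Folr2* was at 0.0066 with array weights, 0.0100 without *Sucnr1*-/- replicate 1, 0.028 without WT replicate 1 and 0.091 without both. The cause was not tested. Centring each array on its median, which moved the median of all genes to 0.05, gave 1352 higher and 330 lower genes unadjusted, against 652 and 632 as reported. It left 8 markers with a lower mean and 2 of them under an unadjusted p of 0.05. Leaving out *Sucnr1*-/- replicate 2 gave 808 genes unadjusted, 368 of them lower. After the dimmest 40% were dropped, 369 genes were higher and 535 lower, unadjusted. Those counts come from a smaller set of genes, so they cannot be set directly beside 652 and 632.

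The genotypes share replicate numbers, but deviations of same-numbered mice correlated at 0.45, 0.14, 0.11 and 0.01 for replicates 1 to 4, so the numbers were not taken as pairs; *Sucnr1*-/- replicates 2 and 4 each correlated best with WT replicate 3. With the replicate number as a block, 4 markers were lower at an unadjusted p under 0.05, *Clec10a* being added (−0.22, SE 0.09; limma, adjusted p = 0.481), 1096 genes were lower and 809 higher, and 0 genes passed after adjustment. The arrays have no separate background signal, which limits what can be read from dim genes such as *Timd4* and *Marco*.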
